A study of Mus musculus with 2 samples.

Results

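Conventional dendritic cells type 2 (cDC2) were picked from 2 single-cell RNA libraries of mouse liver by thresholds on unique molecular identifier (UMI) counts, the number of distinct transcript molecules read per gene and cell. Barcodes entered with 500 or more UMIs, 250 or more genes read and a mitochondrial share of UMIs up to 20%. It was called cDC2 with a sum of at least 100 UMIs over the MHC class II genes H2-Aa, H2-Ab1 and Cd74 and at least 3 UMIs over Itgax, Cd209a, Clec10a and Ccr2. The rule further allowed at most 1 UMI of the cDC1 genes Xcr1 and Clec9a, no UMI of the B cell genes Cd79a and Ms4a1, under 10 UMIs of the complement genes C1qa, C1qb and C1qc, and under 3 UMIs of the nonclassical monocyte genes Treml4, Ear2, Cd300e and Adgre4. The rule found 59 cells among 3035 kept barcodes, of which 49 came from the PCB126 library and 10 from the Control library.

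The study compared the liver of a C57/BL6 mouse given PCB126 at 20 µg/kg/day with that of a C57/BL6 mouse given peanut oil. PCB126 is a dioxin-like polychlorinated biphenyl and a ligand of the aryl hydrocarbon receptor (AHR). Both mice were exposed for 5 weeks and then fasted for 12 hours, and both carry the age label of postnatal day 21. The labels leave some points unsettled, since a single gavage is described beside a dose per day, and the oil-treated mouse is labelled untreated. Postnatal day 21 is also shorter than 5 weeks of exposure, and the labels do not say which time point it marks. No transgene or mutant allele is stated for either mouse. Each liver was digested with enzymes, freed of most hepatocytes by slow centrifugation and straining through a 30 µm mesh, treated to lyse red cells, and loaded into droplets with a target of 6000 cells.

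Dendritic cells take up antigen and present it to T cells on MHC molecules. The cDC2 branch depends on the growth factor receptor FLT3, is known for the transcription factor IRF4, for surface SIRPα and C-type lectins, and for presenting antigen on MHC class II to CD4+ T cells. The cDC1 branch, marked by XCR1 and CLEC9A, is known for presenting antigen to CD8+ T cells. In the liver cDC2 lie mainly around the portal tracts and can resemble monocyte-derived cells, which share CCR2 and MHC class II with them.

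With 1 mouse and 1 library per treatment there were no replicates. No test between the treatments was possible, and mouse, dissociation and treatment cannot be told apart. Every interval is an exact 95% interval that covers counting error only. The PCB126 library held 4307 barcodes and 16269562 UMIs, of which 1149 barcodes were kept, and the Control library held 8550 barcodes and 24134912 UMIs, of which 1886 were kept. No kept barcode occurred in both libraries. The PCB126 cDC2 held 673315 UMIs in all and the Control cDC2 held 126073, so that the sums of the 10 Control cells set most of the counting error. A cDC2 held 3576 to 35190 UMIs in the PCB126 library, with a median of 12667, and 8078 to 20138 in the Control library, with a median of 11404. The median mitochondrial share was 7.18% in PCB126 cDC2 and 5.44% in Control cDC2. Red cell RNA was uneven between the libraries. Haemoglobin genes gave 13 UMIs (0.00193%) in PCB126 cDC2 and 7701 UMIs (6.11%) in Control cDC2, and 99.4% of the Control haemoglobin lay in 3 of the 10 cells.

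The genes that chose the cells are given as a description. The integrin gene Itgax, which encodes CD11c, had 188 UMIs in PCB126 cells and 37 in Control cells, or 279 CPM in PCB126 cells and 293 CPM in Control cells, where CPM is the gene's UMIs per 1000000 UMIs of the class. Cd209a, a C-type lectin of the DC-SIGN family, had 273 UMIs (405 CPM) in PCB126 cells and 39 (309 CPM) in Control cells. Clec10a, a lectin that binds galactose-type sugars, had 112 UMIs (166 CPM) in PCB126 cells and 14 (111 CPM) in Control cells. Summed over cells, these 3 genes stood at like levels in both libraries, whereas Ccr2, the receptor of the monocyte chemokine CCL2, had 357 UMIs (530 CPM) in PCB126 cells and 19 (151 CPM) in Control cells. The lectin sums of the Control library came from few cells. A Clec10a UMI was found in 25 of 49 PCB126 cells and 2 of 10 Control cells. These 2 Control cells also held 12 and 21 of the 39 Cd209a UMIs. A Cd209a UMI was found in 34 of 49 PCB126 cells and 4 of 10 Control cells, and in 25 PCB126 and 3 Control cells after each cell was thinned to 3000 UMIs. Liver endothelial cells, which should lack the gene, had a Cd209a UMI in 0.196% of PCB126 barcodes, at a median depth of 6283 UMIs, and in 0% of Control barcodes, at 6736 UMIs.

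The MHC class II sum of the members ran from 125 to 923 UMIs in the PCB126 library, with a median of 545, and from 238 to 504 in the Control library, with a median of 416. Barcodes that met every other condition but this one had at most 15 UMIs in the PCB126 library and at most 40 in the Control library. The sum over the 4 dendritic cell genes had a median of 14 UMIs in PCB126 cells and 6 in Control cells, closer to the limit of 3. It was 3, just inside, in 2 PCB126 cells and 1 Control cell, and 2, just outside, in 4 PCB126 cells and 0 Control cells.

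Genes that the rule did not use describe the label more closely. Flt3 had 126 UMIs (187 CPM) in PCB126 cells and 23 (182 CPM) in Control cells, a ratio of 1.03 (interval 0.654 to 1.68), with a UMI in 40 of 49 PCB126 cells and 10 of 10 Control cells. Zbtb46, a transcription factor of conventional dendritic cells that endothelial cells also express, had 27 UMIs (40.1 CPM) in PCB126 cells and 7 (55.5 CPM) in Control cells. Sirpa had 71 UMIs (105 CPM) in PCB126 cells and 23 (182 CPM) in Control cells, a ratio of 0.578 (0.357 to 0.97). Flt3, Zbtb46 and Sirpa were thus read in both groups. Of 13 measured genes of a conventional dendritic cell list, 4 were at least 2 times higher in PCB126 cells, Irf8 and Batf3 among them. Another 2 were at least 2 times lower, and the median log2 ratio was -0.05. Irf4 had 28 UMIs in 16 PCB126 cells and none in Control cells, which is at least 1.75-fold higher against a floor of 3 counts in the class. Mgl2, a lectin related to Clec10a, had 33 UMIs in 11 PCB126 cells and none in Control cells, at least 2.06-fold higher. Neither Cd209a nor Clec10a was read in 11 of 49 PCB126 cells (22.4%, interval 11.8 to 36.6%) and in 6 of 10 Control cells (60%, 26.2 to 87.8%). For those 6 Control cells the cDC2 label therefore rests on Itgax, Flt3 and the genes that were absent, and not on the lectins. Ccr2 had at most 2 UMIs in any of them, and some had none and met the marker sum by Itgax alone. Most Control cells also had a Cd7 UMI, and their Cst3 level lay far below that of Control cDC1, as given below. The name cDC2 therefore stands for cells that met the rule, and is uncertain for much of the Control group. In the ratios below, a change within cDC2 and a difference in which cells met the rule cannot be told apart.

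**Figure D1:**
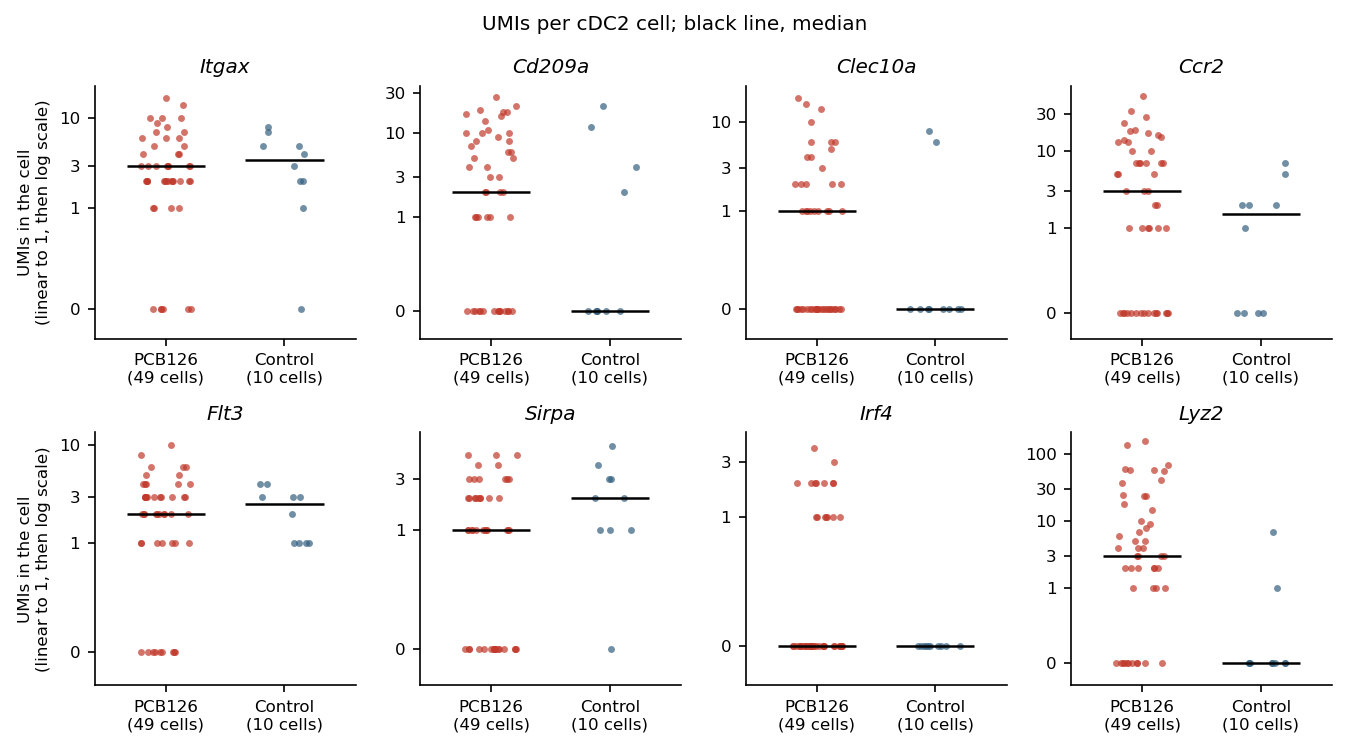
UMIs of 8 genes in each cDC2 cell (1 point per cell, vertical axis linear to 1 UMI and logarithmic above, black line for the median), for 49 PCB126 cells on the left and 10 Control cells on the right. Itgax and Flt3 overlap between the libraries, with medians of 3 and 3.5 UMIs for Itgax and 2 and 2.5 for Flt3 in PCB126 and Control cells, while 15 PCB126 cells and no Control cell hold at least 10 Lyz2 UMIs.

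Markers of other cell types ranged widely in the sums. The erythroid list, which is mostly haemoglobin, came to 25.2 CPM in PCB126 cells and 61306 CPM in Control cells. All 13 genes of a T and NK cell list, all 9 of a stellate cell and fibroblast list and all 7 of a basophil and mast cell list had no UMI in either library. Of 13 neutrophil markers 8 had no UMI in either library, Ly6g, Mmp9, Cxcr2 and Ngp among them, and the list summed to 53.5 CPM in PCB126 cells and 47.6 CPM in Control cells. Only Mmp8 of this list reached 20 UMIs, and it had no UMI in Control cells. Of 15 Kupffer cell and macrophage markers 8 were at 0 in both, with 110 CPM in PCB126 cells and 31.7 CPM in Control cells. Of 13 endothelial markers none was at 0 in both, with 291 CPM in PCB126 cells and 127 CPM in Control cells. Of 12 hepatocyte markers 4 were at 0 in both, with 140 CPM in PCB126 cells and 238 CPM in Control cells. The 10 classical monocyte markers summed to 2020 CPM in PCB126 cells and 944 CPM in Control cells, and 1 of them was at 0 in both. Their part in the results below was not tested.

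cDC2 took a larger share of the kept barcodes in the PCB126 library. They made up 49 of 1149 barcodes (4.26%, interval 3.17 to 5.60%) in the PCB126 library and 10 of 1886 (0.530%, 0.255 to 0.973%) in the Control library, an 8.04-fold ratio (4.02 to 17.8). The last condition of the rule, on nonclassical monocyte genes, fell unevenly. It removed 3 of the 52 PCB126 cells left at that step and 7 of the 17 Control cells. The ratio depends on this limit, and other limits were not tested. cDC1, called with at least 2 UMIs of Xcr1 and Clec9a, made up 6.35% of the PCB126 barcodes (73 cells) and 1.80% of the Control barcodes (34 cells), a 3.52-fold ratio (2.32 to 5.46). Macrophages with at least 10 C1q UMIs were also a larger share in the PCB126 library, with 29 cells against 6 Control cells. cDC2 were 49 of 122 conventional dendritic cells (40.2%, 31.4 to 49.4%) in the PCB126 library and 10 of 44 (22.7%, 11.5 to 37.8%) in the Control library, and these intervals overlap.

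The make-up of the 2 suspensions differed far beyond the dendritic cells. Endothelial barcodes were 44.4% of those kept in the PCB126 library and 10.9% in the Control library. Neutrophil barcodes were 6.61% in the PCB126 library and 41.4% in the Control library, and nonclassical monocytes were 0.348% in the PCB126 library and 23.2% in the Control library. A share of 1 class moves with all others, so more dendritic cells and fewer neutrophils in the PCB126 liver cannot be told apart from these values. Among barcodes with a UMI of Ptprc, the pan-leukocyte gene for CD45, cDC2 were 48 of 417 (11.5%, 8.61 to 15%) in the PCB126 library and 10 of 1436 (0.696%, 0.334 to 1.28%) in the Control library. The PCB126 share also followed the mitochondrial limit, and was 9.83% at a limit of 10% and 2.16% at a limit of 50%.

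**Figure D2:**
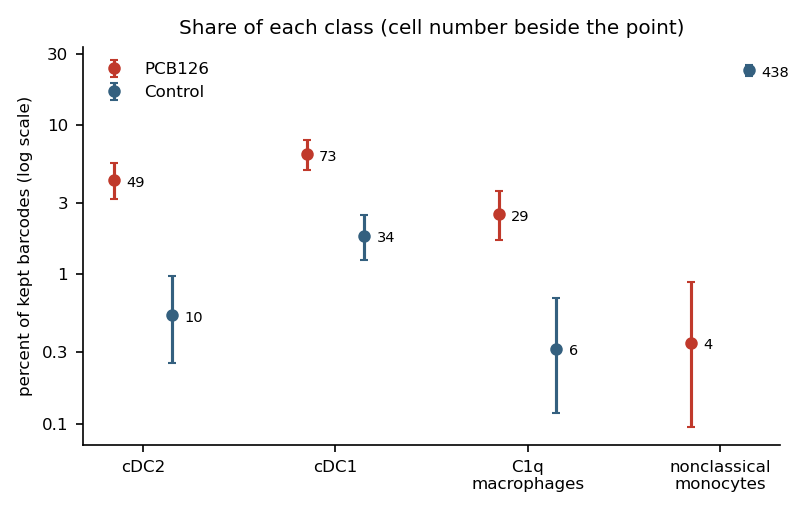
Share of the kept barcodes held by cDC2, cDC1, C1q macrophages and nonclassical monocytes (vertical axis, percent, log scale), with PCB126 left of Control in each class, bars for exact 95% binomial intervals and the number of cells beside each point. The cDC2 share is 4.26% in PCB126 and 0.530% in Control, and nonclassical monocytes go the other way with 4 PCB126 cells and 438 Control cells.

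The PCB126 cDC2 were not uniform in their myeloid genes. Lyz2, which encodes lysozyme and is high in monocytes and macrophages, reached at least 10 UMIs in 15 of 49 PCB126 cells (30.6%, 18.3 to 45.4%) and in 0 of 10 Control cells, which by the floor of 3 counts allows a share of up to 30%. A Lyz2 UMI was in 73.7% of PCB126 and 67.7% of Control neutrophil barcodes. The 15 cells held 1285 CPM of Ccr2 and 314 CPM of Csf1r, the receptor of the macrophage growth factor CSF1, against 252 CPM of Ccr2 and 91.5 CPM of Csf1r in the other 34 PCB126 cells. Zbtb46 stood at 5.51 CPM in the 15 cells, where 1 cell had a UMI, and at 52.8 CPM in the other 34, where 19 cells had one. Flt3 stood at 171 CPM in the 15 cells and 193 CPM in the other 34, and Cd209a at 425 CPM in the 15 cells and 398 CPM in the other 34. Fewer of the lysozyme-rich cells had these genes, with a Cd209a UMI in 8 of 15 against 26 of 34 and a Flt3 UMI in 10 of 15 against 30 of 34. Of the 15 cells 5 had no Flt3 UMI. Ly6c2, a surface gene of classical monocytes, had 109 UMIs in 12 PCB126 cells and none in Control cells. It did not simply follow Lyz2, since 1 cell held 35 of these UMIs and another 31, and neither had a Lyz2 UMI. Ly6c2 stood at 221 CPM in the 15 cells, where 7 had a UMI, and at 140 CPM in the other 34, where 5 had one. Csf1r over all cells had 102 UMIs (151 CPM) in PCB126 cells and 4 (31.7 CPM) in Control cells, a ratio of 4.77 (1.81 to 17.9). A list of 14 monocyte-derived dendritic cell genes had a median log2 ratio of 2.09 over its 9 measured members, or 1.58 with genes at 0 in Control set to 3 counts, and 0.20 when only cells with a Cd209a UMI were compared.

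Other states were rare. Cells called mature, with a sum of at least 3 UMIs over Ccr7, Fscn1 and Ccl22, were 2 of 49 in the PCB126 library and 0 of 10 in the Control library. In both cells the sum was all Ccl22, with 3 and 38 UMIs, and Ccr7 had no UMI in either library. Cycling cells, with at least 3 UMIs of Mki67, Top2a, Birc5 and Pclaf, were 5 of 49 in the PCB126 library and 1 of 10 in the Control library.

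Across all genes the class sums differed by at least 2-fold for a minority. Of 1970 genes with at least 50 UMIs over both sums, 253 (12.8%) were at least 2 times higher in PCB126 cDC2 and 111 (5.63%) at least 2 times lower, which is 18.5% either way. The ratio's interval lay wholly above 2 for 48 genes and wholly below 0.5 for 33. The median log2 ratio of these genes was 0.08. Among 4367 genes with at least 20 UMIs, the set against which the gene lists below are read, 16.7% were at least 2 times higher and 7.63% at least 2 times lower, with a median of 0.11. With only cells that had a Cd209a UMI, 34 PCB126 cells and 4 Control cells, 156 genes were at least 2 times higher. Without the 3 Control cells rich in haemoglobin 265 genes were at least 2 times higher and 121 at least 2 times lower.

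The genes highest by size included cell surface, interferon and myeloid genes. Ly6a, which encodes the interferon-inducible surface protein Sca-1, had 762 UMIs (1132 CPM) in PCB126 cells and 1 UMI (7.93 CPM) in Control cells. Its ratio was 143 (interval 25.5 to 5643), and 43 of 49 PCB126 cells lay above the highest Control cell. Endothelial cells express Ly6a as well and had a UMI in 61.8% of PCB126 barcodes and 37.6% of Control barcodes, whereas neutrophils had one in 1.32% of PCB126 and 1.02% of Control barcodes. Aif1, an actin-bundling protein of myeloid cells, had 175 UMIs in 38 PCB126 cells and none in Control cells, at least 10.9-fold higher. Rnase6, a secreted ribonuclease, had 235 UMIs (349 CPM) in PCB126 cells and 1 (7.93 CPM) in Control cells. Mpeg1, which encodes the pore-forming protein perforin-2, had 317 UMIs (471 CPM) in PCB126 cells and 4 (31.7 CPM) in Control cells, a ratio of 14.8 (5.74 to 54.8). These genes were broad in the PCB126 library, with a UMI in 45 cells for Ly6a, 41 for Rnase6 and 48 for Mpeg1.

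The same group held the receptor gene Gpr141, with 227 UMIs in PCB126 cells and 4 in Control cells, and AW112010, an interferon-responsive transcript, with 108 UMIs in PCB126 cells and 0 in Control cells. It also held the noncoding RNAs Zfas1, with 167 UMIs in PCB126 cells and 2 in Control cells, and 2410006H16Rik, with 349 UMIs in PCB126 cells and 13 in Control cells. Lyz2 belonged to it with 873 UMIs (1297 CPM) in PCB126 cells and 8 (63.5 CPM) in Control cells, a ratio of 20.4 (10.3 to 47.5).

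At the other end, Traf1, an adaptor of TNF receptors, had 63 UMIs (93.6 CPM) in PCB126 cells and 116 (920 CPM) in Control cells, 9.83-fold lower (7.18 to 13.6). Il1b, the gene of the inflammatory cytokine interleukin-1β, had 66 UMIs (98.0 CPM) in PCB126 cells and 118 (936 CPM) in Control cells, 9.55-fold lower (7.01 to 13.1). These UMIs were concentrated, with at least 10 in 2 of 49 PCB126 cells and in 3 of 10 Control cells, 1 of which held 57. Ifitm1, a membrane protein that restricts viral entry, had 217 UMIs (322 CPM) in PCB126 cells and 297 (2356 CPM) in Control cells, with a UMI in 14 of 49 PCB126 cells and 10 of 10 Control cells. S100a4, a calcium-binding protein, had 634 UMIs (942 CPM) in PCB126 cells and 271 (2150 CPM) in Control cells, 2.28-fold lower (1.97 to 2.64). Klrd1, which encodes the lectin-like receptor CD94, had 158 UMIs (235 CPM) in PCB126 cells and 69 (547 CPM) in Control cells. The remaining genes of this group ran from Nfkbia, 5.00-fold lower, to Junb, 2.48-fold lower, and included the kinase gene Fgr, the membrane-binding annexin gene Anxa2 and the adhesion receptor gene Adgre5. Basp1 was higher in PCB126 cells, at a log2 ratio of 0.33, when the rule was applied after thinning every cell to 3000 UMIs, while the other 29 of the 30 genes chosen by size kept their side in every setting in which they were recomputed, at most 24 for a gene.

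**Figure D3:**
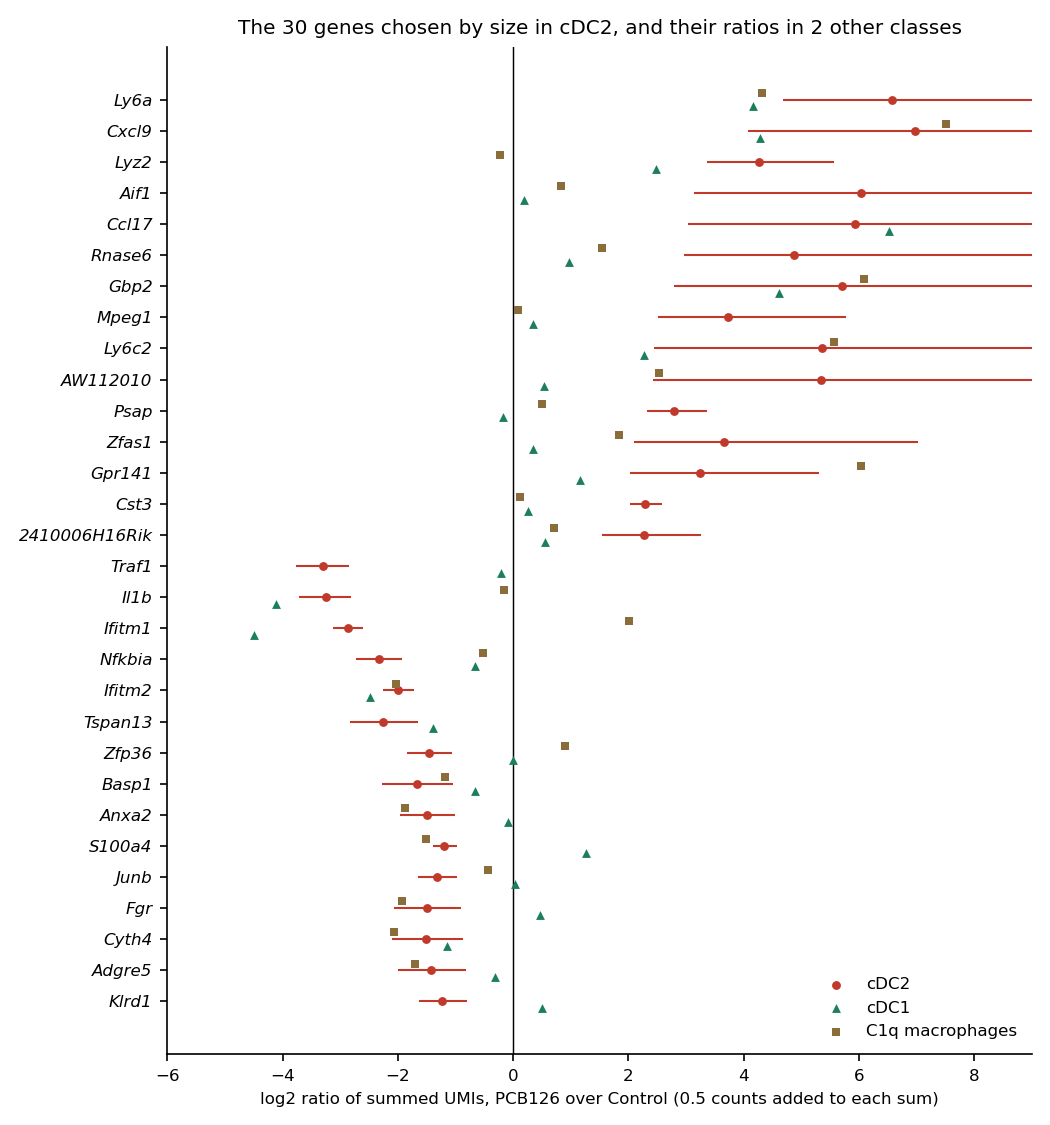
Log2 ratio of summed UMIs, PCB126 over Control (horizontal axis, 0.5 counts added to each sum), for the 30 genes chosen by size in cDC2, with red circles and 95% counting intervals for cDC2, triangles for cDC1 and squares for C1q macrophages. Ly6a, Cxcl9 and Gbp2 lie right of 0 in all 3 classes, whereas Cst3 and Psap lie at 2.29 and 2.80 in cDC2 and at 0.26 and -0.18 in cDC1.

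Genes that respond to interferon gamma stood higher in PCB126 cDC2. This cytokine, made mainly by T and NK cells, acts in part through IRF1 on guanylate-binding proteins (GBPs), immunity-related GTPases and T cell chemokines. Of 15 measured members of the list, 12 were at least 2 times higher in PCB126 cells and none at least 2 times lower, beside 16.7% and 7.63% of all genes. Their median log2 ratio was 2.45, or 1.73 with the 6 genes at 0 in Control set to 3 counts.

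The promoters of 3 GBP genes clustered on chromosome 3 are shown as examples of genes read almost only in PCB126 cells. Each runs from 250 bases before to 50 bases after the RefSeq start site, 5′ to 3′ on the gene's strand, in GRCm38.p6. Capitals mark matches on either strand to the gamma-activated site, searched as TTCNNNGAA, and to the interferon-stimulated response element, searched as GAAA, 2 bases of any kind and GAAA again.
Gbp2, chr3:142620413-142620712, plus strand: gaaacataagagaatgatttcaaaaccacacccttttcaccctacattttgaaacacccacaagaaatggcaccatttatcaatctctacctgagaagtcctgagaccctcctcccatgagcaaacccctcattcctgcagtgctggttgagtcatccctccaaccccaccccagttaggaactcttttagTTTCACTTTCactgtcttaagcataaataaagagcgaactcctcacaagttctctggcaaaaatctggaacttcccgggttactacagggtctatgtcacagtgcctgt
Gbp5, chr3:142496684-142496983, plus strand: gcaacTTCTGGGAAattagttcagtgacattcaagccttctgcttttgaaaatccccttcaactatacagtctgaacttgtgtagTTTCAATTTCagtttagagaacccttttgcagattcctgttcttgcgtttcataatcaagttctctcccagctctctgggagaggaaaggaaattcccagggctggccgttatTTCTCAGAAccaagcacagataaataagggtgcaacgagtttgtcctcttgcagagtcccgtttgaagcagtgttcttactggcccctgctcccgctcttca
Gbp7, chr3:142530086-142530385, plus strand: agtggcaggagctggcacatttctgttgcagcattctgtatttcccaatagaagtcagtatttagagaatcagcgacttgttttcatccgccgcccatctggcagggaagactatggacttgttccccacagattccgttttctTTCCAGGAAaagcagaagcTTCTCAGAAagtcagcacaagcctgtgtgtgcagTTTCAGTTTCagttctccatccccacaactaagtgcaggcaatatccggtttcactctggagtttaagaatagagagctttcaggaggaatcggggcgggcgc
The Gbp2 window held 0 gamma-activated sites and 1 response element, and the Gbp5 and Gbp7 windows each held 2 gamma-activated sites and 1 response element. Gbp3, from the same cluster and with 34 UMIs in PCB126 cells and none in Control cells, has a pair of start sites in the table, 1 window with 0 gamma-activated sites and 2 response elements and 1 with neither. Over the list, 8 of the 16 genes with a promoter in the table held the gamma-activated site (50%) and 10 held the response element (62.5%). Of all 27025 genes in the table, 9.55% held the first and 3.99% the second. A match of letters describes the window and does not show binding.

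Gbp2 had 138 UMIs in 17 PCB126 cells and none in Control cells, at least 8.61-fold higher. Gbp5 had 46 UMIs in 9 PCB126 cells and none in Control cells, at least 2.87-fold higher. Gbp7 had 43 UMIs in PCB126 cells and 1 in Control cells, a ratio of 8.05 (1.37 to 325). GBPs are near copies of each other, as are the H2-Q, Ifitm and Ly6c genes, and the sources used here do not say how reads shared between copies were counted. Irf1, a transcription factor gene of the pathway, had 70 UMIs (104 CPM) in PCB126 cells and 3 (23.8 CPM) in Control cells, a ratio of 4.37 (1.43 to 21.7).

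Cxcl9, a chemokine that draws activated T cells through CXCR3, had 335 UMIs (498 CPM) in 10 PCB126 cells and none in Control cells, at least 20.9-fold higher. Of the immunity-related GTPase genes, Ifi47 had 64 UMIs in PCB126 cells and 1 in Control cells, and Iigp1 had 68 UMIs in PCB126 cells and none in Control cells. Serpina3g, a protease inhibitor, had 131 UMIs (195 CPM) in PCB126 cells and 4 (31.7 CPM) in Control cells, a ratio of 6.13 (2.34 to 22.8). Ciita, the master regulator of MHC class II, did not follow, with 94 UMIs (140 CPM) in PCB126 cells and 18 (143 CPM) in Control cells, nor did Cd274, the gene of the checkpoint ligand PD-L1, with 18 UMIs (26.7 CPM) in PCB126 cells and 6 (47.6 CPM) in Control cells.

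Much of this signal lay in a few cells. The 7 PCB126 cells with at least 10 Cxcl9 UMIs held 938 CPM of Gbp2, against 48.6 CPM in the other 42 PCB126 cells and 0 in Control cells. Iigp1 stood at 566 CPM in the 7 cells, 1.80 CPM in the other 42 and 0 in Control cells. Serpina3g stood at 1014 CPM in the 7 cells and 19.8 CPM in the other 42, and at 31.7 CPM in Control cells. Without the 7 cells the list's median log2 ratio was 0.69, with 5 rather than 0.5 counts added it was 0.74, and with each cell thinned to 3000 UMIs it was 1.06. Ly6a was more widely spread, and stood at 2874 CPM in the 7 cells, 760 CPM in the other 42 and 7.93 CPM in Control cells. The summed list per cell ran from 0 to 11913 CPM in PCB126 cells, with a median of 673, and from 124 to 740 CPM in Control cells, with a median of 502, so that 22 of 49 PCB126 cells lay above the highest Control cell.

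**Figure D4:**
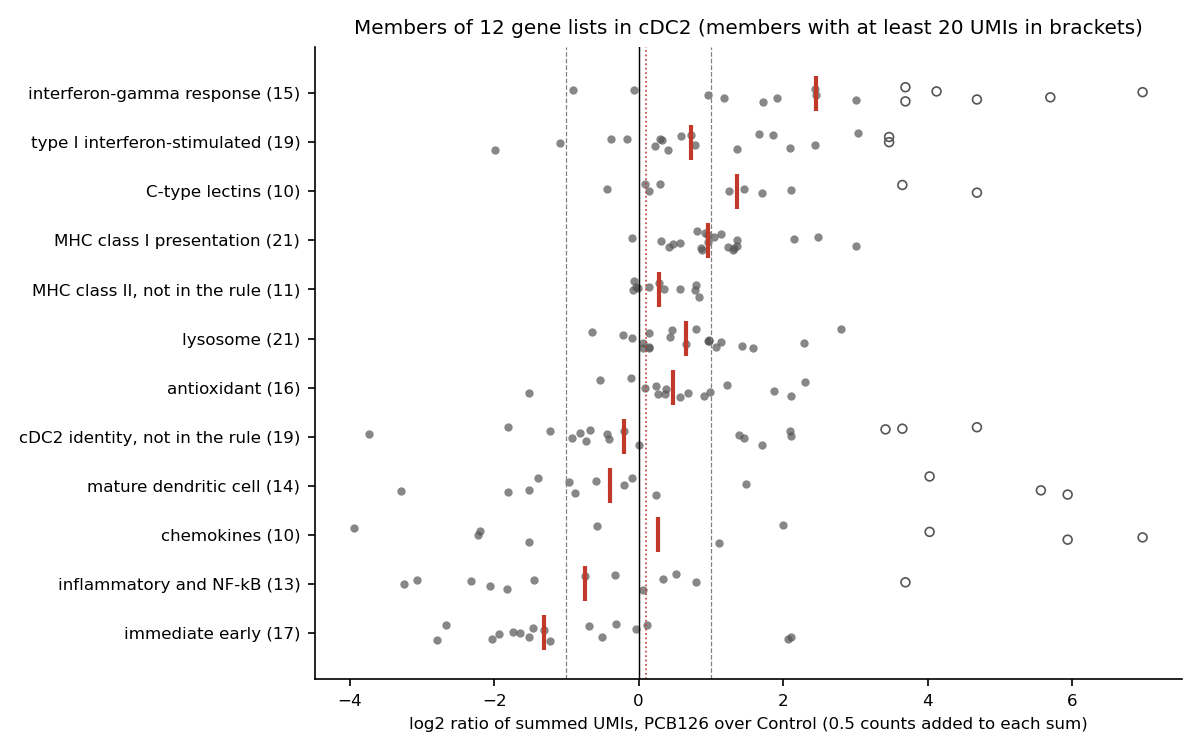
Log2 ratio of summed UMIs, PCB126 over Control, for each member with at least 20 UMIs of 12 gene lists in cDC2 (grey points, open where Control had no UMI, red bars for list medians, dotted line for the median of all genes, dashed lines for 2-fold). The interferon gamma response list has its median at 2.45 and MHC class I presentation at 0.96, while the inflammatory and immediate early lists have theirs at -0.74 and -1.31.

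Type I interferon-stimulated genes formed a weaker pattern. Of 19 measured members, 8 were at least 2 times higher in PCB126 cells and 2 at least 2 times lower, with a median log2 ratio of 0.72. Bst2, which tethers virions at the cell surface, had 125 UMIs (186 CPM) in PCB126 cells and 6 (47.6 CPM) in Control cells, a ratio of 3.90 (1.74 to 10.8). Ifi203, a gene of the PYHIN family, had 193 UMIs (287 CPM) in PCB126 cells and 8 (63.5 CPM) in Control cells. Ifitm2 lay on the other side with 276 UMIs (410 CPM) in PCB126 cells and 205 (1626 CPM) in Control cells, and Isg15, a ubiquitin-like modifier, lay between with 143 CPM in PCB126 cells and 111 CPM in Control cells.

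MHC class I genes were broadly higher in PCB126 cells. Of 21 measured members of the presentation list, 20 had a ratio above 1, 10 were at least 2 times higher and none at least 2 times lower, with a median log2 ratio of 0.96. The heavy chain gene H2-K1 had 1003 UMIs (1490 CPM) in PCB126 cells and 91 (722 CPM) in Control cells, a ratio of 2.06 (1.66 to 2.59). B2m, the shared light chain, had 1644 UMIs (2442 CPM) in PCB126 cells and 163 (1293 CPM) in Control cells, a ratio of 1.89 (1.61 to 2.23). Tap1, which carries peptides into the endoplasmic reticulum, had a ratio of 2.29 (1.27 to 4.54), and the immunoproteasome subunit gene Psmb8 one of 1.96 (1.46 to 2.69). Summed per cell, 38 of 49 PCB126 cells lay above the highest Control cell. The 7 cells with most Cxcl9 did not carry this alone, since H2-K1 stood at 1885 CPM in them and at 1405 CPM in the other 42 PCB126 cells.

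MHC class II genes that the rule did not use differed less. Of 11 measured, 7 had a ratio above 1 and none reached 2-fold either way, with a median log2 ratio of 0.28. H2-Eb1, the beta chain of I-E, had 5911 UMIs (8779 CPM) in PCB126 cells and 908 (7202 CPM) in Control cells, a ratio of 1.22 (1.14 to 1.31). H2-DMa, part of the exchanger that loads peptides, had 783 UMIs (1163 CPM) in PCB126 cells and 82 (650 CPM) in Control cells, a ratio of 1.79 (1.42 to 2.27), while H2-Oa, part of its inhibitor, had 345 CPM in PCB126 cells and 349 CPM in Control cells. Since H2-Aa, H2-Ab1 and Cd74 chose the cells, the levels of their partners are not independent of the choice.

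Lysosomal genes were led by a pair of abundant transcripts. Cst3, the cathepsin inhibitor cystatin C, had 3045 UMIs (4522 CPM) in PCB126 cells and 116 (920 CPM) in Control cells, a ratio of 4.92 (4.08 to 5.97). Psap, the precursor of the saposins that help degrade sphingolipids, had 1244 UMIs (1848 CPM) in PCB126 cells and 33 (262 CPM) in Control cells, a ratio of 7.06 (5.00 to 10.3). For Cst3 38 and for Psap 36 of 49 PCB126 cells lay above the highest Control cell. Of 21 measured genes of the list 6 were at least 2 times higher in PCB126 cells and none at least 2 times lower, with a median log2 ratio of 0.66. Ctss, the cathepsin that trims the invariant chain, had a ratio of 1.75 (1.40 to 2.20), and Ifi30, a lysosomal thiol reductase, one of 0.994 (0.842 to 1.18). Among cells with a Cd209a UMI the list median was 0.0246, the log2 ratio of Cst3 was 2.24, against 2.29 over all cells, and that of Psap was 1.30, against 2.80 over all cells.

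C-type lectins outside the rule were mostly higher in PCB126 cells. Of 10 measured, 6 were at least 2 times higher and none at least 2 times lower, with a median log2 ratio of 1.36, or 1.15 with the genes at 0 set to 3 counts. Clec12a, an inhibitory receptor for uric acid crystals, had 68 UMIs in 24 PCB126 cells and none in Control cells, at least 4.24-fold higher. Clec4a2, an inhibitory receptor of dendritic cells, had 78 UMIs (116 CPM) in PCB126 cells and 4 (31.7 CPM) in Control cells, and Clec4b1 had 80 UMIs (119 CPM) in PCB126 cells and 3 (23.8 CPM) in Control cells. This direction turned with the rule: applied after thinning, it left 43 PCB126 cells and 3 Control cells, and the list median was -1.27. Fcgr3, an activating Fc receptor, had 88 UMIs in PCB126 cells and 3 in Control cells, all in 1 cell. The galactose-binding lectin gene Lgals3 had 1207 UMIs (1793 CPM) in PCB126 cells and 63 (500 CPM) in Control cells, a ratio of 3.59 (2.78 to 4.70).

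The transcription factor and surface genes of the cDC2 branch went both ways. Of 19 measured identity genes outside the rule, 8 were at least 2 times higher in PCB126 cells and 3 at least 2 times lower, with a median log2 ratio of -0.20. Rbpj, which carries Notch signals needed by one cDC2 subset, had 160 UMIs (238 CPM) in PCB126 cells and 11 (87.3 CPM) in Control cells, a ratio of 2.72 (1.48 to 5.57), and Notch2 had 51 UMIs in PCB126 cells and 3 in Control cells. Klf4, needed by another cDC2 subset, had 108 UMIs (160 CPM) in PCB126 cells and 47 (373 CPM) in Control cells, 2.32-fold lower (1.61 to 3.30). Cd7, an immunoglobulin-family surface gene better known from T cells, had 19 UMIs (28.2 CPM) in PCB126 cells and 48 (381 CPM) in Control cells, 13.5-fold lower (7.78 to 24.3), with a UMI in 8 of 49 PCB126 cells and 9 of 10 Control cells. Irf8, a factor of the cDC1 branch, had 91 UMIs (135 CPM) in PCB126 cells, of which 1 cell held 44, and 2 UMIs (15.9 CPM) in Control cells. Batf3, its partner, had 118 UMIs (175 CPM) in PCB126 cells and 7 (55.5 CPM) in Control cells, a ratio of 3.16 (1.48 to 8.02). Csf2rb, the shared receptor chain for GM-CSF, had 170 UMIs (252 CPM) in PCB126 cells and 12 (95.2 CPM) in Control cells, a ratio of 2.65 (1.48 to 5.24).

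Maturation and costimulation genes showed no common direction or lay lower. Ccl17, a chemokine of dendritic cells that attracts CCR4-bearing T cells, had 163 UMIs in 10 PCB126 cells and none in Control cells, at least 10.2-fold higher. Ccl22, which shares its receptor, had 43 UMIs in PCB126 cells, 38 of them in 1 cell, and none in Control cells. Cd86, a ligand of CD28 on T cells, had 41 UMIs (60.9 CPM) in PCB126 cells and 28 (222 CPM) in Control cells, 3.65-fold lower (2.17 to 6.04). Relb, an NF-κB subunit of maturing dendritic cells, had 17 UMIs in PCB126 cells and 11 in Control cells, 3.46-fold lower (1.46 to 7.82). Of 14 measured genes of the mature dendritic cell list, 4 were at least 2 times higher in PCB126 cells and 4 at least 2 times lower, with a median log2 ratio of -0.39, and of 7 costimulation and checkpoint genes none was at least 2 times higher and 2 were at least 2 times lower.

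Of 10 measured chemokines, 5 were at least 2 times higher in PCB126 cells and 4 at least 2 times lower. Beside Cxcl9, Ccl17 and Ccl22, Ccl6 had 203 UMIs (301 CPM) in PCB126 cells and 9 (71.4 CPM) in Control cells, a ratio of 4.22 (2.18 to 9.37). Ccl4, a chemokine that draws T cells and monocytes, had 86 UMIs (128 CPM) in PCB126 cells and 247 (1959 CPM) in Control cells, 15.3-fold lower (12 to 19.8). Its UMIs came from 5 of 49 PCB126 cells and 4 of 10 Control cells, 1 of which held 142. Ccl3, from the same cluster, had 57 UMIs (84.7 CPM) in PCB126 cells and 50 (397 CPM) in Control cells. Cxcl10 had 61 UMIs in 3 PCB126 cells and 52 in Control cells, all in 1 cell. Ccl3 and Cxcl10 lay on the other side of 0 when only cells with a Cd209a UMI were compared, with log2 ratios of 0.90 and 3.51.

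Inflammatory and NF-κB genes were lower in PCB126 cells. Of 13 measured, 6 were at least 2 times lower and 1 at least 2 times higher, with a median log2 ratio of -0.74. Nfkbia, the inhibitor that NF-κB itself induces, had 111 UMIs (165 CPM) in PCB126 cells and 104 (825 CPM) in Control cells, 5.00-fold lower (3.79 to 6.60). Tnfaip3, a brake on the same pathway, had 19.3 CPM in PCB126 cells and 79.3 CPM in Control cells, and the subunit gene Rel had 74.3 CPM in PCB126 cells and 262 CPM in Control cells. Summed per cell the list ran from 162 to 4811 CPM in PCB126 cells, with a median of 873, and from 509 to 10790 CPM in Control cells, with a median of 2622. The groups overlapped, with no PCB126 cell above the highest Control cell and 6 of 49 below the lowest.

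Immediate early genes, which respond within minutes to stimulation, were also lower in PCB126 cells. Of 17 measured, 10 were at least 2 times lower in PCB126 cells and 2 at least 2 times higher, with a median log2 ratio of -1.31, or -0.63 with each cell thinned to 3000 UMIs. Summed per cell the list ran from 219 to 21984 CPM in PCB126 cells, with a median of 1799. In Control cells it ran from 1318 to 29105 CPM, with a median of 4738. The highest Control value came from 1 cell, and the next was 11624 CPM. The groups overlapped, with 8 of 49 PCB126 cells above the Control median and 17 below the lowest Control cell. Fos had 171 UMIs (254 CPM) in PCB126 cells and 91 (722 CPM) in Control cells, 2.84-fold lower (2.18 to 3.69). Dusp1, a phosphatase that ends MAP kinase signals, had 46 UMIs (68.3 CPM) in PCB126 cells and 60 (476 CPM) in Control cells, 6.97-fold lower (4.67 to 10.5). Nr4a1, an orphan nuclear receptor, had 47.5 CPM in PCB126 cells and 301 CPM in Control cells. Fosb went the other way with 80 UMIs in 17 PCB126 cells and 3 in Control cells. Neutrophils, the most frequent class of the Control library, carry these transcripts widely: an Il1b UMI was in 92.1% of PCB126 and 95.4% of Control neutrophil barcodes, and a Fos UMI in 96.1% of PCB126 and 84.6% of Control ones. The 13 neutrophil markers summed to 53.5 CPM in PCB126 cDC2 and 47.6 CPM in Control cDC2. Only Mmp8 of them reached 20 UMIs, and it had no UMI in Control cells, so the Control sum came from other markers. The part of neutrophil RNA in these results was not tested.

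**Figure D5:**
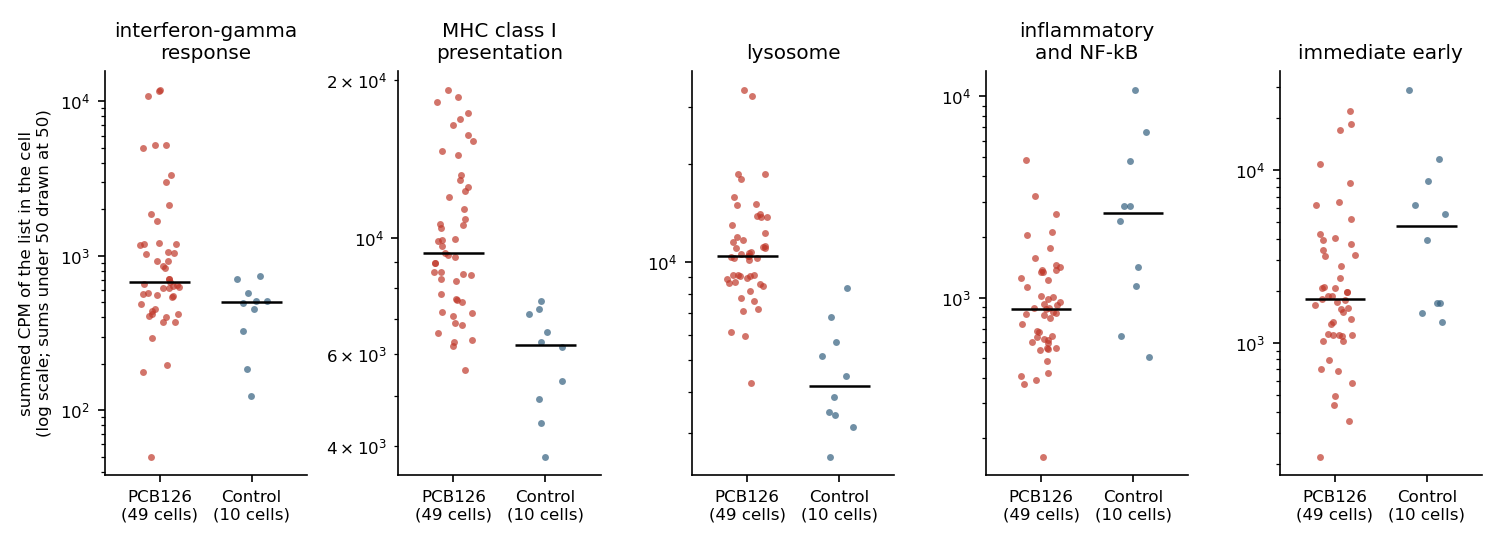
Summed CPM of 5 gene lists in each cDC2 cell (vertical axes on log scales, 1 point per cell, black line for the median), for 49 PCB126 cells on the left and 10 Control cells on the right of each panel. For MHC class I presentation 38 and for the lysosome list 41 of 49 PCB126 cells lie above the highest Control cell, whereas no PCB126 cell does for the inflammatory and immediate early lists. Below the lowest Control cell lie 6 of 49 PCB126 cells for the inflammatory list and 17 for the immediate early list.

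Of 16 genes on a list of AHR targets, 2 reached 20 UMIs in cDC2, Tiparp and Hif1a. Cyp1a1, a P450 enzyme and the best known target of the receptor, had 6 UMIs in 4 of 49 PCB126 cells (8.16%, 2.27 to 19.6%) and none in 10 Control cells. Endothelial barcodes had a Cyp1a1 UMI in 99.4% in the PCB126 library and 19.0% in the Control library, and neutrophil barcodes, at median depths of 4017.5 and 3711 UMIs, had one in 13.2% in the PCB126 library and 0.512% in the Control library. The cDC2 share lay below that of PCB126 neutrophils, but its interval holds the neutrophil value. In cDC1, Cyp1a1 was among the 2 of 5 measured targets at least 2 times higher in PCB126 cells. Whether the Cyp1a1 UMIs in cDC2 came from the cells or from background was not tested. Ahrr, the AHR repressor, had 12 UMIs in 8 PCB126 cells and none in Control cells, a count too low for a fold. Tiparp, an ADP-ribosyltransferase and feedback inhibitor of AHR, had 34 UMIs (50.5 CPM) in PCB126 cells and 11 (87.3 CPM) in Control cells, a ratio of 0.579 (0.286 to 1.27). Hif1a, an oxygen-regulated transcription factor, had 89 UMIs (132 CPM) in 31 PCB126 cells and 3 (23.8 CPM) in 2 Control cells, a ratio of 5.55 (1.84 to 27.4). Ahr itself had 35 UMIs (52.0 CPM) in 15 PCB126 cells and 26 (206 CPM) in 5 Control cells, 3.97-fold lower (2.29 to 6.78).

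Set beside cDC1 and C1q macrophages of the same libraries, genes of the interferon gamma list were higher in all 3, while the median of the lysosome list was highest in cDC2. The interferon gamma list had a median log2 ratio of 2.45 in cDC2, 3.81 in cDC1 (18 of 18 measured genes above 0) and 3.14 in C1q macrophages (15 of 15). With genes at 0 in Control set to 3 counts, these medians were 1.73, 2.44 and 1.93. The Control macrophages were only 6 cells. Ly6a had 487 CPM in PCB126 and 26.5 CPM in Control cDC1, and 815 CPM in PCB126 and 35.2 CPM in Control macrophages. Ccl17 was read in PCB126 cDC1 (80.2 CPM) and not in Control cDC1. Cst3 had 14172 CPM in PCB126 and 11841 CPM in Control cDC1, and Psap had 2741 CPM in PCB126 and 3098 CPM in Control cDC1, so these genes differed by at least 2-fold in cDC2 and not in cDC1. The lysosome list had medians of 0.66 in cDC2, 0.23 in cDC1 and -0.23 in macrophages. The inflammatory list had medians of -0.74 in cDC2, -0.30 in cDC1 and -0.15 in macrophages, and the immediate early list -1.31, -0.54 and -0.31. Il1b was lower in PCB126 than in Control cDC1 as well, with 6.48 CPM against 118 CPM. Neutrophil markers moved with it there, summing to 33.2 CPM in PCB126 cDC1 and 1336 CPM in Control cDC1, with all 5 measured markers at least 2 times lower, and their part in the result was not tested. All 3 classes were cut by gene thresholds from the same 2 libraries, so no difference between classes was tested.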

How the data were processed

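Single-cell RNA was measured in 2 mouse livers, 1 PCB126 and 1 Control (peanut oil). The authors deposited matrices of unnormalized UMI counts, whose headers name Cell Ranger 6.0.0; Cell Ranger 6.1.1 and Seurat 4.0.1 appear in the submitters' processing notes. The deposited gene and barcode lists hold other content, namely identifiers in matrix order. The authors' genome build was not given in the sources used. Of 34244 identifiers, 34049 occur in GENCODE M21.

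Cells were chosen by the thresholds given above, and their UMIs were added up in each library and scaled to CPM. Ratios of PCB126 to Control have exact conditional binomial intervals, shares have Clopper-Pearson intervals, and both, like floors of 3 counts, cover counting error only. Log2 ratios add 0.5 counts to each sum. List medians use members with at least 20 UMIs over both sums. The members, gene lists and rules were chosen with earlier results of these data known. Up to 15 genes per direction were named by the interval bound closest to 1, if they had 100 or more UMIs, were read in at least 20% of cells of the library where they were higher and had no cell with more than 0.5 of their UMIs; mitochondrial, ribosomal, haemoglobin and sex-linked genes were not named. Doublets were not removed beyond the rule; barcodes with the highest Scrublet scores, 11 in PCB126 and 28 in Control, held 0 cDC2. Alternatives changed thresholds, scaling, thinning, filters and cell subsets. The count and ratio steps were tested on simulated data. Promoters came from RefSeq (GRCm38.p6). Python 3.11.15, numpy 2.4.6, scipy 1.17.1, pandas 2.3.3, scanpy 1.11.5 and matplotlib 3.10.9 were used.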

Additional observations from a re-analysis of the deposited data

Results flagged for a closer look

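Of the genes compared across classes, 4 with at least 50 UMIs in both classes were at least 2-fold apart between the libraries in opposite directions in cDC2 and in cDC1 or C1q macrophages, and none of these differences was tested. S100a4 had a log2 ratio of -1.19 in cDC2, from 634 UMIs in PCB126 and 271 in Control cells, and of 1.27 in cDC1, from 123 UMIs in PCB126 and 23 in Control cells. The chemokine gene Ccl3 had a log2 ratio of -2.23 in cDC2, from 57 UMIs in PCB126 and 50 in Control cells, and of 2.34 in C1q macrophages, from 151 in PCB126 and 8 in Control cells. Its neighbour Ccl4 had -3.93 in cDC2, from 86 UMIs in PCB126 and 247 in Control cells, and 2.08 in C1q macrophages, from 185 in PCB126 and 12 in Control cells. The immediate early gene Fosb had 2.11 in cDC2, from 80 UMIs in PCB126 and 3 in Control cells, and -2.58 in C1q macrophages, from 31 in PCB126 and 53 in Control cells. In cDC2, Ccl3 turned to 0.90 among cells with a Cd209a UMI, and Fosb to -0.84 with the rule applied after thinning. Of the 247 Ccl4 UMIs in Control cDC2, 1 cell held 142 and another 85. The Control macrophages were only 6 cells.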

How the results depend on the processing

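The 10 Control cells limit every ratio. Of 98 genes past 2-fold that were recomputed, 15 changed side in at least 1 of the settings in which they were recomputed, at most 24 for a gene, and 254 of 3352 recomputed values left their counting interval. Leaving out the haemoglobin genes from the total gave 212 genes higher and 128 lower, and TMM scaling 282 and 106, against 253 and 111. No paired analysis was possible because each treatment has 1 library. The ambient profile scaled by the strict rule came to a share of 0 and changed nothing; scaled by the summed hepatocyte markers it came to 10.6% in PCB126 and 10.4% in Control cells, and left 239 genes higher and 121 lower.

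The cDC2 share of PCB126 barcodes was 9.83% at a limit of 10% mitochondrial UMIs and 2.16% at 50%. With the rule applied after thinning to 3000 UMIs, 43 of 1050 PCB126 and 3 of 1579 Control cells met it, 26 and 2 of them also in the main class; the Control share was then 0.190% and 183 genes were at least 2 times lower. The list medians in that setting were -1.38 for inflammatory genes, -2.75 for immediate early genes, -1.27 for C-type lectins, -0.27 for the lysosome and -0.48 for genes of the monocyte-like cDC2B subset (2.09 in the main setting). The log2 ratio in that setting turned to 0.33 for Basp1, 2.38 for Ccl5, -0.86 for Ccr2, -0.0079 for Clec12a, -0.77 for Clec4a2, -1.93 for Clec4b1, 3.14 for Cxcl10, -0.0712 for Cxcl16, -0.84 for Fosb, 2.91 for Havcr2, -0.46 for Ifi27l2a, -3.26 for Mgl2, -0.0324 for Npc2 and -0.61 for Psmb10. With the chosen cells thinned to 3000 UMIs, 30 genes were higher and 19 lower, and medians were -1.90 for inflammatory, 1.06 for interferon gamma response and -0.63 for immediate early genes; fewer genes then pass the filter.

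Without a filter on low sums 2010 genes were higher and 1823 lower, and with at least 200 UMIs 31 and 19. With 5 counts added, medians were 0.74 for the interferon gamma response and 0.29 for C-type lectins, since equal counts on unequal sums lower a ratio by construction. The interferon gamma median was 3.17 without cells of at least 100 haemoglobin UMIs and 0.69 without cells of at least 10 Cxcl9 UMIs. Without cells of at least 10 Lyz2 UMIs 167 genes were higher. Among cells with a Cd209a UMI 156 genes were higher, medians were -1.42 for inflammatory genes, -1.95 for immediate early genes, 0.49 for C-type lectins and 0.0246 for the lysosome, and log2 ratios turned to 0.90 for Ccl3, 3.28 for Ccl5, 3.51 for Cxcl10, -0.85 for Cxcl16 and 3.004 for Havcr2. Cxcl10 also turned, to 4.49, at a marker sum of at least 5. The cause of these shifts was not tested. The settings on haemoglobin, Flt3, Lyz2, Cd209a and Cxcl9 cells were chosen after seeing the data.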

Other observations

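Of 16 measured antioxidant genes 4 were at least 2 times higher in PCB126 cDC2 and 1 at least 2 times lower, with a median log2 ratio of 0.48 beside 0.11 for all genes. The peroxidase gene Prdx5 had 283 UMIs (420 CPM) in PCB126 cells and 14 (111 CPM) in Control cells, a ratio of 3.78 (2.22 to 7.01). Gpx1, a selenium-dependent peroxidase, had 1005 CPM in PCB126 cells and 1459 CPM in Control cells, a ratio of 0.689 (0.584 to 0.815). Of 12 glycolysis and hypoxia genes 3 were at least 2 times higher and none at least 2 times lower. The lipid droplet gene Plin2 had 90 UMIs (134 CPM) in PCB126 cells and 4 (31.7 CPM) in Control cells, and Tfrc, the transferrin receptor that takes up iron, had 18 UMIs (26.7 CPM) in PCB126 cells and 14 (111 CPM) in Control cells.

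None of the 13 genes encoded by the mitochondrial genome reached 2-fold, with a median log2 ratio of 0.52, and none of 19 nuclear genes of oxidative phosphorylation did, with a median of 0.19. Of 11 heat shock genes 1 was at least 2 times lower in PCB126 cells and none at least 2 times higher, with a median of -0.24. Of 21 cytoskeleton and motility genes 3 were at least 2 times higher and 2 at least 2 times lower, with a median of -0.05. Among them Tmsb4x, which binds actin monomers, had 16106 UMIs (23920 CPM) in PCB126 cells and 1552 (12310 CPM) in Control cells, a ratio of 1.94 (1.84 to 2.05).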
